A study of Homo sapiens with 6 samples.

Results

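The 36 genes described here act in mitosis and at the G2/M boundary: mitotic kinases, cyclins, kinesins, spindle checkpoint, kinetochore and cytokinesis genes. They were taken by symbol, and each of the 36 symbols matched 1 of the 57820 Ensembl identifiers of a table of raw read counts. All 36 passed the filter on low counts, which left 16396 genes for testing. RNA came from Cal27, an established human line of tongue squamous carcinoma cells, with 3 groups and 2 replicates in each. One group carried a lentiviral construct for overexpression of Cornulin (CRNN), a protein of differentiating squamous epithelium. Another carried a GFP vector by the same route. Both were harvested 48 h after transduction with polybrene at 8 µg/ml. The untreated group is labelled WT, and no harvest time or polybrene is given for it, so these cannot be told apart from transduction in a comparison with it. The labels name no clone and no promoter for either construct. They call the replicates biological without saying whether they were separate cultures, so p-values measure the spread between these libraries, which may be technical.

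Cells enter mitosis when cyclin B and CDK1 are switched on by CDC25 phosphatases, helped by the kinases PLK1 and Aurora A. The spindle checkpoint then holds CDC20 and the anaphase-promoting complex back until every chromosome is attached, after which cyclins are destroyed and the cell divides. Most of these genes are transcribed late in the cell cycle, through the DREAM, MYBL2 and FOXM1 complexes that bind CHR elements (cell cycle genes homology regions) and through NF-Y bound to CCAAT boxes. Their summed messenger RNA is widely read as a measure of proliferation in tumours.

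Library totals ranged from 11817105 counts in GFP replicate 2 to 28041227 in untreated replicate 1. Levels are given as CPM, the count relative to a library size scaled by TMM, on which 3 counts stood for 0.115 to 0.239 CPM. The least covered member value was 146 counts, for CDC25C in untreated replicate 1. CRNN itself had 964 and 1028 CPM in the CRNN libraries and between 2.08 and 3.51 in the other 4. Epithelial markers were found in every library, with KRT5 between 1902 and 4270.2 CPM and TP63 between 153 and 468. DSG3, the least of them in every library but untreated replicate 1, was at 29.6 to 46.6 CPM. Several shifted in untreated replicate 1, in both directions. KRT17 was at 1771 CPM there (67.6 to 182 elsewhere), CDH1 at 281 (73.3 to 116) and SFN at 1017 (280 to 367). KRT14 was at 64.6 CPM there (123 to 275 elsewhere) and PKP1 at 41.0 (93.5 to 113). All 6 immune markers, among them PTPRC, stayed under 1 CPM in every library, with a summed level of 0.802 to 1.92 CPM. Of 7 fibroblast markers 5 did, while COL1A1 was at 1.28 to 4.26 CPM and COL1A2 at 1.18 to 2.95, and the 7 summed to 3.96 to 9.34. The 3 endothelial markers found were led by CDH5, at 7.21 to 49.9 CPM and highest in untreated replicate 1, and in the other 5 libraries the 3 summed to 8.05 to 14.0. In the levels of the members, untreated replicate 1 stood apart from the other 5 libraries, so it is given apart from untreated replicate 2 throughout. Over all tested genes the median absolute log2 difference between replicates was 0.42 in the untreated pair, 0.46 in the GFP pair and 0.19 in the CRNN pair.

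Promoter sequence is a feature that the choice of the 36 did not use. RefSeq windows (GRCh38.p14, 250 bases before to 50 after a transcript start) were at hand for 30 members, in 39 windows. Exact matches to the CHR element, TTTGAA on either strand or TTCGAA, which reads the same on both, were found in 22 of the 30 members. Among all 27305 symbols with a window, 19.5% had one. The CCAAT box, on either strand, was found in 25 of the 30, against 39.7% of all symbols. Both elements stood in 20 members (66.7%, against 9.02%). Counted by window, 25 of 39 held a CHR element (64.1%, against 16.4% of all 35116 windows) and 29 held a CCAAT box (74.4%, against 34.6%). A match is a stretch of letters and no measured binding site. AURKA, BIRC5, BUB3, TPX2, TTK and UBE2C had no window in the table.

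The 200 bases before the start are printed for 8 members whose levels are followed below, in lower case with CHR elements and CCAAT boxes (ATTGG on the other strand) in capitals. CCNB2 (chr15:59104946-59105145, plus strand) and PLK1 (chr16:23678689-23678888, plus strand) have the CHR element 29 bases upstream, and in PLK1 a single CCAAT box lies 73 bases upstream. CDK1 is shown for the second of its 2 starts (chr10:60778278-60778477, plus strand), and CDC20 for its only one (chr1:43358781-43358980, plus strand). KIF20A (chr5:138178912-138179111, plus strand) and KIF23 (chr15:69414149-69414348, plus strand) are kinesins of the dividing midzone, the one with a wide and the other with the narrowest gap in the untreated pair, as given below. MKI67 (chr10:128126424-128126623, minus strand) has a CHR element that runs into a CCAAT box, sharing letters with it. CENPE (chr4:103198344-103198543, minus strand) holds neither element in its window. Positions follow RefSeq starts, and the GENCODE gene models of CCNB2, CDK1, PLK1, KIF20A, KIF23 and CENPE reach into the printed stretch.
CCNB2: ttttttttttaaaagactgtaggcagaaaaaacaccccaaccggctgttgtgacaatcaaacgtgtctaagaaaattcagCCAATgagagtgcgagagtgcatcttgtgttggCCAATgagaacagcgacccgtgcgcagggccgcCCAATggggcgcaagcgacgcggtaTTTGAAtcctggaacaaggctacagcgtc
PLK1: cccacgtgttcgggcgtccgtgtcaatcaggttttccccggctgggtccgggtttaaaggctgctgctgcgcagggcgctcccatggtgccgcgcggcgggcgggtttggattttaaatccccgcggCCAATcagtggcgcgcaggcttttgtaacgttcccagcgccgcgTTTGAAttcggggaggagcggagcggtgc
CDK1: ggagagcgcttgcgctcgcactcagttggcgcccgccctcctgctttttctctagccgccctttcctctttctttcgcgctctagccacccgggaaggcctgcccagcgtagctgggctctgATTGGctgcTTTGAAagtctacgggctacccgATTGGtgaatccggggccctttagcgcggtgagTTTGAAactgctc
CDC20: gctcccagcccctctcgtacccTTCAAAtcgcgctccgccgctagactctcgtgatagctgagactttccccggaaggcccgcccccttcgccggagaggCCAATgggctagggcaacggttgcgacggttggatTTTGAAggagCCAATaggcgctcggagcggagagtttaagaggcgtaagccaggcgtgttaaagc
KIF20A: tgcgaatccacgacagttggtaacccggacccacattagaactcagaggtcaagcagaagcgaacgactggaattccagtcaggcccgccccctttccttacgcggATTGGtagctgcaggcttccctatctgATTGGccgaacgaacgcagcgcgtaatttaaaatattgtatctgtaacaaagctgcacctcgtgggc
KIF23: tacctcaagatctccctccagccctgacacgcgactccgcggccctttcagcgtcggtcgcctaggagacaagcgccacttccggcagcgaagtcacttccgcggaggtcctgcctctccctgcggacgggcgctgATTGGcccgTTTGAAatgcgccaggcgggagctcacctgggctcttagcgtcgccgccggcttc
MKI67: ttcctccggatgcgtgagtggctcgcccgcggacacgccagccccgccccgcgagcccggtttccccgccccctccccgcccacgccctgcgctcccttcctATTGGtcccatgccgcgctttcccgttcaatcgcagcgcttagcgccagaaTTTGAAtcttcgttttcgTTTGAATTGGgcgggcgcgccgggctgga
CENPE: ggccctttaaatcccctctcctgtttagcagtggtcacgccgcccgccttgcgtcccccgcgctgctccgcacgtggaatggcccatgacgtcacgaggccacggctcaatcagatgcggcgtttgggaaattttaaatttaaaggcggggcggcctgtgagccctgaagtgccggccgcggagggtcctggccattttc

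**Figure D1:**
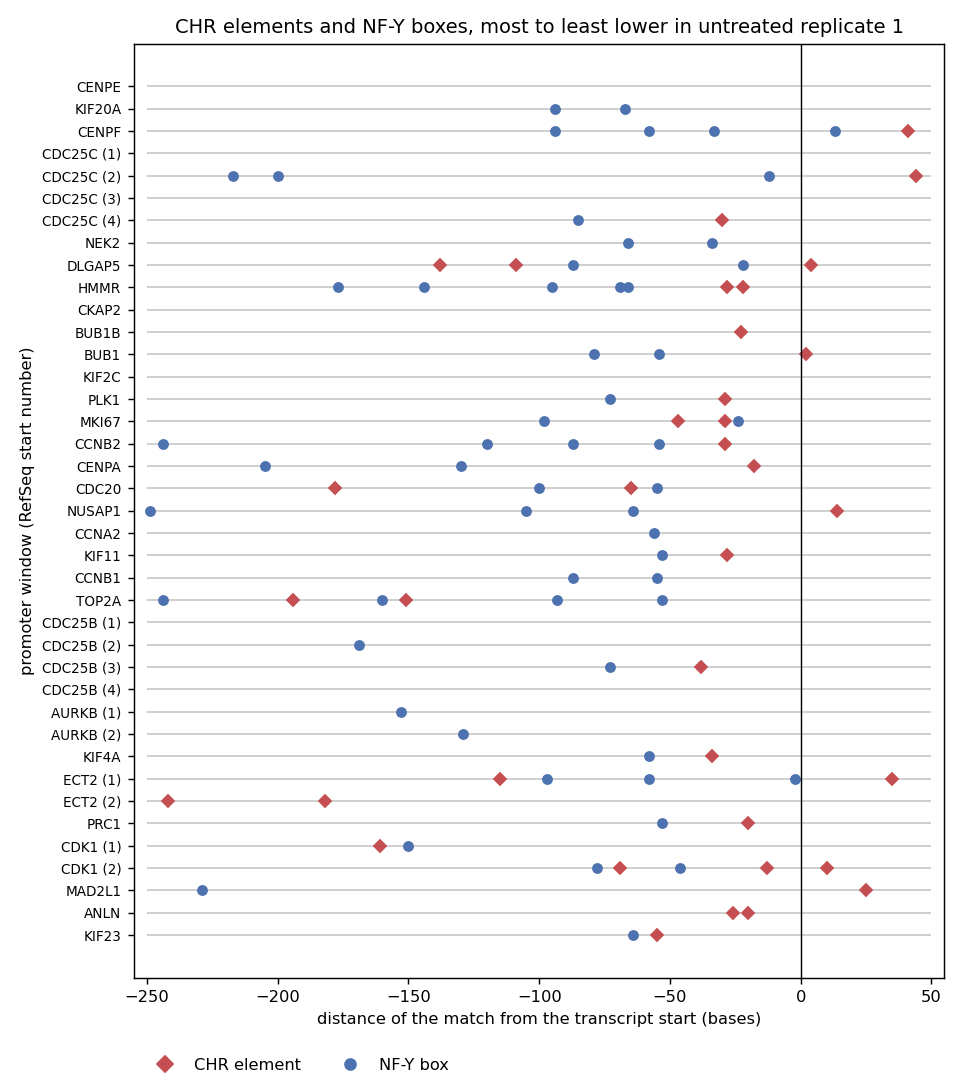
Positions of CHR elements (diamonds) and CCAAT boxes (circles, bound by NF-Y) in the 39 RefSeq windows of 30 members, as bases from the transcript start, with a number after the symbol where a gene has several starts. Genes run from the most to the least lower in untreated replicate 1, and both elements occur from CENPF near the top to KIF23 at the bottom.

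Every member was lower in untreated replicate 1 than in untreated replicate 2 (50.6% of all genes), and 33 of the 36 had their lowest level of all 6 libraries there. Over all tested genes, 26.3% were lowest in that library. In 21 members its level was below 50% of that in every other library, against 5.00% of all genes. The summed level of the 36 was 2320.0 CPM in untreated replicate 1, 5318 in untreated replicate 2, 5242 and 5536 in the CRNN libraries, and 4676 and 6944 in the GFP libraries. The other 5 libraries thus lay within 4676 to 6944, and untreated replicate 1 below all of them. In these bulk samples, fewer cells in G2 and mitosis and less of this RNA per cell cannot be told apart. A single library has no replicate of its own, so the difference within the untreated pair is a description with no test.

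**Figure D2:**
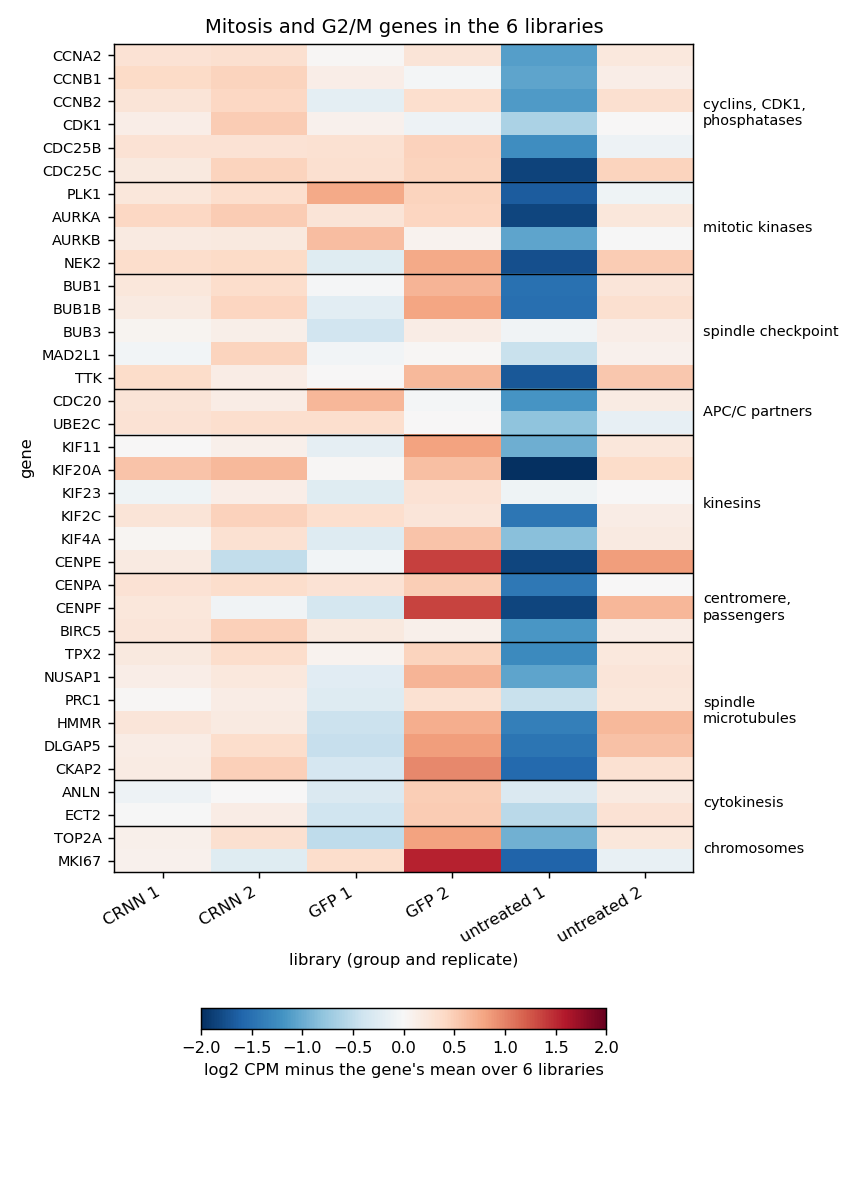
Level of each of the 36 members (rows, grouped by role) in the 6 libraries (columns), as log2 CPM minus the gene's mean over the libraries. Untreated replicate 1 is blue in nearly all rows, palest in BUB3, KIF23 and ANLN, and GFP replicate 2 is deepest red in MKI67, CENPF and CENPE.

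The cyclins, CDK1 and its phosphatases each varied by at most 1.53 times over the 5 libraries other than untreated replicate 1. CCNB1, the cyclin that drives entry into mitosis (ENSG00000134057.10; GRCh38 chromosome 5, 69167135 to 69178245, plus strand), had 394 and 413 CPM in the CRNN libraries, 334 and 294 in the GFP libraries, and 146 and 331 in untreated replicates 1 and 2. The 4 transduced libraries and untreated replicate 2 lay between 294 and 413 CPM, and untreated replicate 1 was 2.27 times lower than its partner. CDK1, the kinase that cyclin B binds (ENSG00000170312.11; GRCh38 chromosome 10, 60778331 to 60794852, plus strand), had 127 and 165 CPM in the CRNN libraries, 122 and 108 in the GFP libraries, and 74.8 and 115 in untreated replicates 1 and 2, a smaller gap of 1.54 times. CDC25C, a phosphatase that activates CDK1, had 23.2 and 27.5 CPM in the CRNN libraries, 25.1 and 27.5 in the GFP libraries, and 5.58 and 27.5 in untreated replicates 1 and 2. Its other 5 values stayed within 1.19 times of each other, and its gap in the untreated pair was 4.94 times. CDC25B, a phosphatase of the same family (ENSG00000101224.13; GRCh38 chromosome 20, 3786772 to 3806121, plus strand), had 111 and 110.0 CPM in the CRNN libraries, 111 and 125 in the GFP libraries, and 38.1 and 84.4 in untreated replicates 1 and 2, with the untreated pair below the 4 transduced libraries. CCNA2, the cyclin of S phase and G2, and CCNB2 had gaps of 2.48 and 2.74 times.

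The 4 mitotic kinases had the lowest level by role in untreated replicate 1, a mean of -1.58 on the centred log2 scale, against 0.16 in untreated replicate 2. PLK1, which acts from entry to cytokinesis (ENSG00000166851.10; GRCh38 chromosome 16, 23677656 to 23690367, plus strand), had 131 and 141 CPM in the CRNN libraries, 189.9 and 152 in the GFP libraries, and 35.2 and 106 in untreated replicates 1 and 2. The 2 untreated libraries lay below the 4 transduced ones. As group means PLK1 had 136 ± 6.87 CPM (SD, n = 2) with CRNN, 171 ± 26.6 (SD, n = 2) with GFP and 70.5 ± 49.9 (SD, n = 2) in untreated cells. AURKA, the kinase of the spindle poles, had 183 and 195 CPM in the CRNN libraries, 163 and 185 in the GFP libraries, and 38.2 and 159.5 in untreated replicates 1 and 2, a gap of 4.17 times in the untreated pair. AURKB, the kinase of the chromosomal passenger complex, had a gap of 2.06 times, and NEK2, which separates centrosomes, one of 4.80 times.

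Checkpoint genes differed more among themselves. TTK, the kinase that sets the checkpoint in motion, had 74.8 and 64.3 CPM in the CRNN libraries, 58.8 and 90.9 in the GFP libraries, and 18.0 and 84.5 in untreated replicates 1 and 2, with a gap of 4.70 times between the untreated libraries. BUB1 and BUB1B, kinase-family proteins at the kinetochore, had gaps of 3.33 and 3.55 times. MAD2L1, which binds CDC20, had a smaller one of 1.44 times. BUB3, the adaptor that brings BUB1 to kinetochores and also has a role in splicing, had 163 and 171 CPM in the CRNN libraries, 122 and 176 in the GFP libraries, and 150.3 and 173 in untreated replicates 1 and 2. Its lowest library was GFP replicate 1, and the untreated pair differed by 1.15 times.

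Among the partners of the anaphase-promoting complex, CDC20, its activator in mitosis, had 264 and 246 CPM in the CRNN libraries, 349.9 and 216 in the GFP libraries, and 97.6 and 249.9 in untreated replicates 1 and 2. UBE2C, the E2 enzyme that passes ubiquitin to the complex (ENSG00000175063.12; GRCh38 chromosome 20, 45812576 to 45816957, plus strand), had 218 and 224 CPM in the CRNN libraries, 224 and 179 in the GFP libraries, and 102 and 158 in untreated replicates 1 and 2. Both were lowest in untreated replicate 1, with gaps of 2.56 and 1.55 times. Per kilobase of exon, which allows genes to be compared, UBE2C, CCNB1 and CDC20 were the most abundant members, with medians over the 6 libraries of 154, 137 and 123 CPM per kb. Their ranges overlapped, at 79.2 to 174, 59.8 to 169.8 and 48.5 to 174. CENPE was the least abundant, at a median of 3.10 CPM per kb and at most 7.60.

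Kinesins held both ends of the range. KIF20A, which carries Aurora B to the spindle midzone, had 244 and 258 CPM in the CRNN libraries, 168 and 249.7 in the GFP libraries, and 35.6 and 212 in untreated replicates 1 and 2. Its level in untreated replicate 1 was 21.2% of the next lowest library. CENPE, the kinesin that moves chromosomes to the spindle equator (ENSG00000138778.7; GRCh38 chromosome 4, 103105349 to 103198445, minus strand), had 33.3 and 20.8 CPM in the CRNN libraries, 28.3 and 75.4 in the GFP libraries, and 8.17 and 52.6 in untreated replicates 1 and 2, the largest gap of all members at 6.43 times. CENPE also varied outside that library, by 3.63 times over the other 5. KIF23, which bundles midzone microtubules for cytokinesis (ENSG00000137807.9; GRCh38 chromosome 15, 69414246 to 69448427, plus strand), had 102 and 119 CPM in the CRNN libraries, 91.0 and 131 in the GFP libraries, and 102 and 108 in untreated replicates 1 and 2, and at 1.06 times its gap was the smallest of all members. Of the promoters printed above, that of KIF23 holds a CHR element and a CCAAT box, KIF20A 2 CCAAT boxes and no CHR element, and CENPE neither. Over the 20 members with both elements the median log2 difference of untreated replicate 1 from replicate 2 was -1.33 (range -2.50 to -0.088). In the 3 members with neither (CENPE, CKAP2 and KIF2C) it was -1.84 (-2.67 to -1.59).

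CENPA, the histone H3 variant that marks centromeres (ENSG00000115163.10; GRCh38 chromosome 2, 26764289 to 26801067, plus strand), had 34.8 and 36.3 CPM in the CRNN libraries, 34.8 and 40.1 in the GFP libraries, and 10.6 and 28.8 in untreated replicates 1 and 2. CENPF, a large protein of the outer kinetochore, had 239 and 196 CPM in the CRNN libraries, 161 and 523 in the GFP libraries, and 57.4 and 325 in untreated replicates 1 and 2, so that GFP replicate 2 was the highest and untreated replicate 1 the lowest. BIRC5 (survivin), a subunit of the passenger complex, had a gap of 2.47 times. Of the 6 spindle microtubule genes, TPX2, which activates Aurora A, had 269 and 300.1 CPM in the CRNN libraries, 246 and 318 in the GFP libraries, and 97.6 and 272 in untreated replicates 1 and 2. The others had gaps in the untreated pair from 1.58 times for PRC1, the midzone crosslinker, to 4.12 for DLGAP5, which stabilises spindle fibres, and all 6 were highest in GFP replicate 2. For NUSAP1, overlaps with more than 1 other annotated gene on the same strand add up to 86.8% of its exon bases. PRC1 shares 57.6% of its exon bases with another annotated gene on the same strand, so the counts of both are uncertain.

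The cytokinesis genes ANLN, a scaffold of the contractile ring, and ECT2, which activates RhoA there, had small gaps in the untreated pair. ANLN had 355 and 379.8 CPM in the CRNN libraries, 309 and 536 in the GFP libraries, and 312 and 428 in untreated replicates 1 and 2, and its lowest library was GFP replicate 1 by a small margin. ECT2 had a gap of 1.78 times. TOP2A, the topoisomerase that untangles chromosomes, had 461 and 538 CPM in the CRNN libraries, 301 and 751 in the GFP libraries, and 222 and 499.6 in untreated replicates 1 and 2. MKI67, the Ki-67 antigen that coats mitotic chromosomes and is used to count proliferating cells (ENSG00000148773.8; GRCh38 chromosome 10, 128096659 to 128126423, minus strand), had 282 and 225 CPM in the CRNN libraries, 337 and 775 in the GFP libraries, and 87.6 and 241 in untreated replicates 1 and 2. GFP replicate 2 held 775 CPM of MKI67, and the other 5 libraries between 87.6 and 337.

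**Figure D3:**
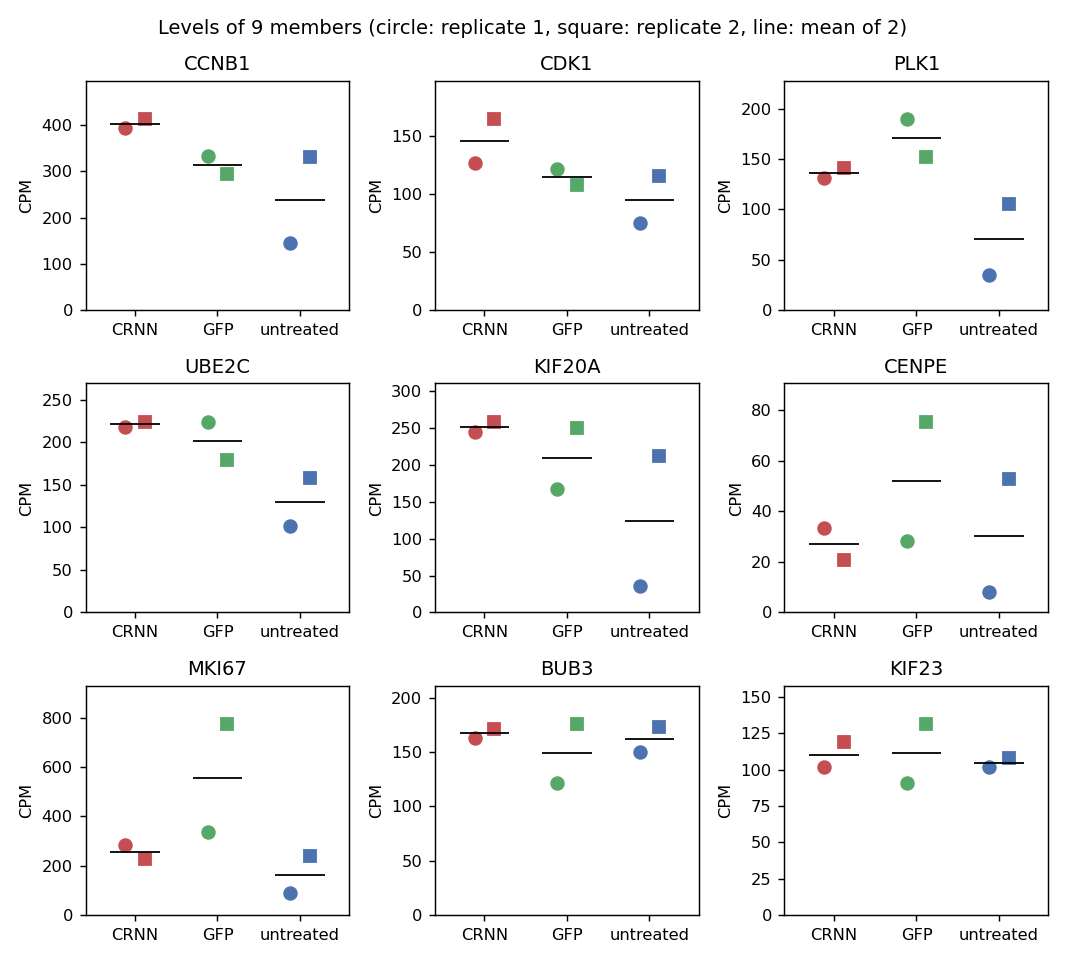
CPM of 9 members in the 6 libraries by group (circle for replicate 1, square for replicate 2, line for the mean of 2), each axis starting at 0. Untreated replicate 1 is the lowest point except in BUB3 and KIF23, and GFP replicate 2 stands highest in MKI67, CENPE, BUB3 and KIF23.

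Comparing CRNN with the GFP vector asks whether the insert changes mitotic genes when transduction is shared. No member passed the threshold in either direction (0 of 36; 0.0183% of all genes passed, 3 of 16396, by edgeR). No member had an unadjusted p under 0.05 in that fit, against 4.39% of all genes, and DESeq2 and limma-voom also called 0 members. The spread was estimated over the 3 groups together, so the untreated pair enters these p-values. With only the CRNN and GFP libraries in the edgeR fit, MKI67 had an unadjusted p of 0.018 (adjusted p = 0.599). By DESeq2 its unadjusted p was 0.033. The median log2 fold change was -0.057, with 14 members positive and 22 negative (49.9% of all genes positive), and -0.0017 over all genes. The smallest p belonged to MKI67, with a log2 fold change of -1.13 (SE 0.52, adjusted p = 0.999), and CENPE followed at -0.94 (SE 0.75, adjusted p = 0.999). In the other direction stood CDK1 at 0.34 (SE 0.30, adjusted p = 0.999) and CCNB1 at 0.36 (SE 0.38, adjusted p = 0.999). The 2 CRNN libraries lay above both GFP libraries in 4 members (19.4% of all genes) and below both in 3 (18.7%). After correction for GC content and length, described further on, it was 1 above (18.7%) and 12 below (24.1%). The same correction took CCNB1 to 0.083 and CDK1 to 0.025. Messenger RNAs of the mitochondrial genome, read here for RNA quality, made up 1.00% and 0.639% of counts with CRNN against 1.49% and 1.27% with GFP, and their part in these values was not tested. Without GFP replicate 2 the median was 0.30, with 31 members positive, so its direction changed when that library was left out. The median was also above 0 without CRNN replicate 1 (0.060), with limma-voom (0.0175) and with a replicate block in the fit (0.045). Its sign thus depended on the method as well as on single libraries. The values of CENPE and MKI67 without GFP replicate 2 were -0.042 and -0.39.

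Against untreated cells, mitotic genes had higher estimates in the CRNN cells, but none passed the test. The median log2 fold change was 0.59, and 34 of the 36 were above 0 (all genes 49.1% positive, median -0.0091). No member passed in either direction by edgeR, where 0.0061% of genes did, nor by DESeq2 or limma-voom. At an unadjusted p under 0.05 there were 2 members higher, against 1.52% of all genes, and 0 lower (2.96%). UBE2C had a log2 fold change of 0.77 (SE 0.30, adjusted p = 0.988), CDC25B 0.85 (SE 0.37, adjusted p = 0.988), PLK1 0.95 (SE 0.45, adjusted p = 0.988) and CENPA 0.85 (SE 0.42, adjusted p = 0.988). In 12 members both CRNN libraries lay above both untreated libraries, against 18.7% of all genes, and in 0 members below (18.4%). Nearly all members were lowest in untreated replicate 1, the library set apart for that, so the 0 was nearly given in advance. The 12 turned on untreated replicate 2, and neither count is a test. Without untreated replicate 1 the median was 0.032, with 22 members positive, 0 members passed (0.0226% of genes were higher), and PLK1 was at 0.37. With untreated replicate 1 as the only untreated library the median was 1.53, all 36 were positive, and 16 rose by edgeR, where 1.90% of genes rose. That fit has 1 untreated library and assumes that it varies like the other groups. Untreated replicate 1 was set apart because the members were low in it, so their rise over it was given in advance. The count from that fit is thus a description and no test of CRNN or transduction.

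The GFP cells against untreated cells, a comparison of transduction without CRNN, used the same untreated libraries, and again no member passed. A positive log2 fold change stood in 35 of 36 members, and the median was 0.59 (all genes 48.9% positive, median -0.0127). By edgeR 0 members and 0 of 16396 genes passed, as with limma-voom and DESeq2 for the members. At an unadjusted p under 0.05 there were 3 members higher, against 4.03% of all genes, and 0 lower (2.90%). These were MKI67 at 1.76 (SE 0.53, adjusted p = 0.711), PLK1 at 1.28 (SE 0.46, adjusted p = 0.711) and CDC25B at 0.95 (SE 0.37, adjusted p = 0.711). CENPA followed at 0.93 (SE 0.42, adjusted p = 0.712). In 8 members both GFP libraries lay above both untreated ones (16.2% of all genes) and in 0 below (15.5%), and after the GC and length correction in 15 (19.4%) and 0 (14.3%). As with CRNN, the counts of 0 were nearly given in advance by untreated replicate 1. Those of 8 and 15 turned on untreated replicate 2, and none is a test. Without untreated replicate 1 the median was 0.015 with 0 members passing, and without GFP replicate 2 it was 0.14, with MKI67 at 1.02. With untreated replicate 1 alone it was 1.52, and 16 members rose, where 2.05% of genes did. Of these, 12 also rose in the CRNN comparison with that library: CDC25B, CDC25C, PLK1, AURKA, NEK2, BUB1, BUB1B, TTK, KIF20A, KIF2C, CENPA and TPX2. Both comparisons use the same untreated library, so they are not independent. It is the library set apart for the members' low levels, so the direction was given in advance. Neither the counts nor the 12 shared members are a test of transduction. The 13 mitochondrial messenger RNAs had positive estimates in 13 of 13 for GFP over untreated (median 0.70) and in 1 of 13 for CRNN over untreated (median -0.41), and their part in the mitotic values was not tested.

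Replicates of the same group can be set beside these differences. In the CRNN pair the members' median log2 difference of replicate 1 from replicate 2 was -0.10, and 0 members were over 2-fold lower in replicate 1 (0.549% of all genes). In the GFP pair it was -0.55 (-0.27 after the GC and length correction), with 8 members over 2-fold lower in replicate 1 (6.54% of all genes). In the untreated pair it was -1.40, with 28 of 36 over 2-fold lower in replicate 1, against 9.59% of all genes, and a median over all genes of -0.0097. Mitochondrial messenger RNAs were lower in untreated replicate 1 than in replicate 2, in 13 of 13 and by a median of -0.51. Their median difference was larger in the CRNN pair, at 0.99 with 13 of 13 higher in replicate 1, and 0.21 in the GFP pair. Their part in the members' gaps was not tested. The members' gap within the untreated pair was thus larger than their median difference between any 2 groups.

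**Figure D4:**
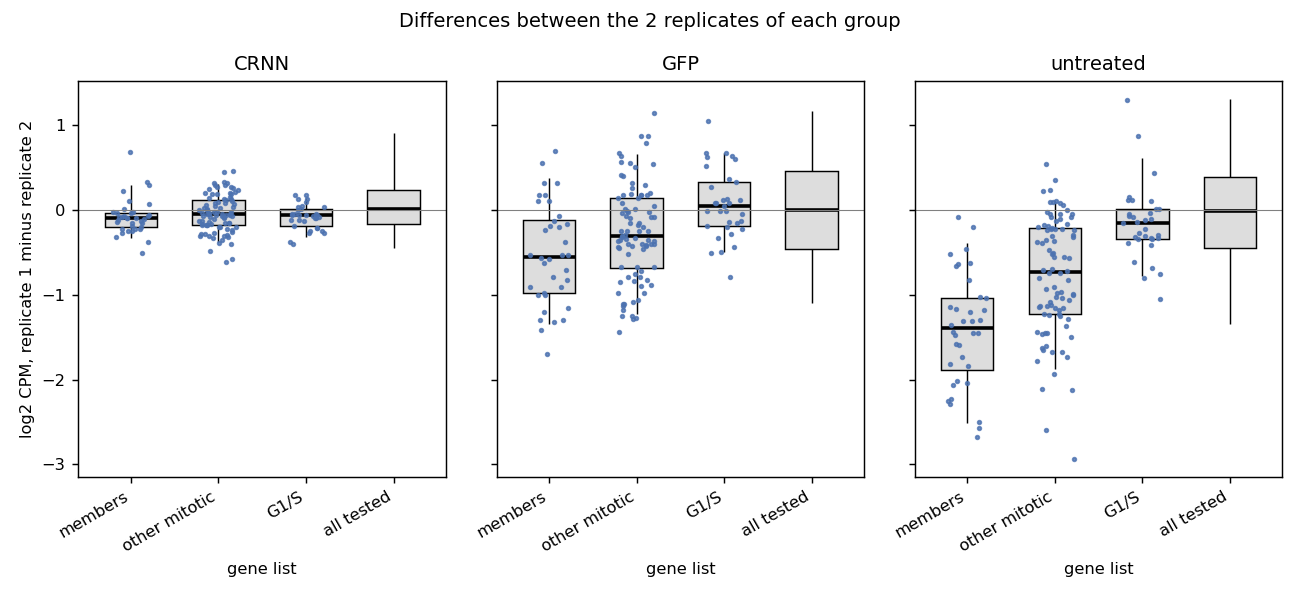
Log2 CPM of replicate 1 minus replicate 2 in each group for the 36 members, 88 other mitotic genes, 33 G1/S and replication genes (points) and all tested genes, with boxes from the lower to the upper quartile, a thick median line and whiskers to the 5th and 95th percentiles. In the untreated panel the members centre on -1.40, the other mitotic genes on -0.73 and the G1/S genes on -0.16.

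Other genes of the mitotic machinery, 88 outside the 36, were given the same reading. By edgeR, 0 of the 88 passed in any of the 3 comparisons, with 1, 1 and 7 at an unadjusted p under 0.05 for CRNN over GFP, CRNN over untreated and GFP over untreated, all higher (1.49%, 1.52% and 4.03% of all genes were higher). In untreated replicate 1, 59 of 88 were lowest (26.3% of all genes). The share differed by complex: 13 of 13 spindle and kinesin genes, 7 of 7 passenger and cohesion genes, 14 of 16 kinase and cytokinesis genes, 10 of 13 outer and 8 of 15 inner kinetochore genes and 5 of 8 condensin genes were lowest there. Of the 16 genes for the anaphase-promoting complex itself and its regulators, 2 were. Their median log2 difference in the untreated pair was -0.11, against -0.99 for CDC20 and UBE2C. KIF18B, a kinesin that shortens astral microtubules, had 42.3 and 33.9 CPM in the CRNN libraries, 74.3 and 59.7 in the GFP libraries, and 15.4 and 35.0 in untreated replicates 1 and 2. CDCA8 (borealin), which joins AURKB and BIRC5 in the passenger complex, had 80.6 and 85.3 CPM in the CRNN libraries, 91.0 and 80.4 in the GFP libraries, and 35.4 and 62.9 in untreated replicates 1 and 2.

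Genes for G1/S and replication differed less within the untreated pair. Of 33 tested, 24 were lower in replicate 1 than in replicate 2 (50.6% of all genes), 10 were lowest of the 6 libraries there (26.3%; 15 of 33 and 31.5% after the GC and length correction), 0 were below 50% of every other library, and the median log2 difference in the untreated pair was -0.16. PCNA, the sliding clamp of DNA polymerase, had 229.7 and 273 CPM in the CRNN libraries, 193 and 199 in the GFP libraries, and 225 and 236 in untreated replicates 1 and 2, with untreated replicate 1 above both GFP libraries and below the other 3. CCNE2, a cyclin that starts S phase, was highest in untreated replicate 1, with 7.80 and 7.76 CPM in the CRNN libraries, 6.65 and 6.31 in the GFP libraries, and 17.6 and 9.65 in untreated replicates 1 and 2. By edgeR 0 of the 33 passed in any comparison, with 0, 1 (lower) and 2 (1 higher, 1 lower) at an unadjusted p under 0.05 in the same order.

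The 15 genes for regulators of mitotic transcription had a median log2 difference of 0.0043 in the untreated pair. FOXM1, the activator of late G2/M genes, had 113 and 102 CPM in the CRNN libraries, 144 and 124 in the GFP libraries, and 46.0 and 97.4 in untreated replicates 1 and 2, and untreated replicate 1 was its lowest library. MYBL2, which recruits FOXM1 and was picked for mention after its values were seen, had 132 and 134 CPM in the CRNN libraries, 183 and 123 in the GFP libraries, and 151 and 117 in untreated replicates 1 and 2, with untreated replicate 1 the second highest. Genes that hold back entry into mitosis were split in that library, from -2.59 to 2.73 on the log2 scale. There 10 of 15 were higher than in replicate 2 and 5 lower (50.6% of all genes were lower). CDKN1A, the CDK inhibitor p21, had 14.5 and 17.1 CPM in the CRNN libraries, 21.2 and 11.8 in the GFP libraries, and 62.0 and 9.25 in untreated replicates 1 and 2. GADD45A, which can block CDK1, had 10.2 and 9.45 CPM in the CRNN libraries, 12.4 and 11.2 in the GFP libraries, and 56.9 and 8.57 in untreated replicates 1 and 2, and SFN (14-3-3 sigma), which can keep CDK1 in the cytoplasm, had 351 and 367 CPM in the CRNN libraries, 352 and 279.7 in the GFP libraries, and 1017 and 305 in untreated replicates 1 and 2. In all 3 untreated replicate 1 was the highest library, but over the 15 brakes it was the highest in 6 (27.1% of all genes) and the lowest in 5 (26.3%). By edgeR 0 regulators and 0 of these brakes passed in any comparison, with 0, 0 and 1 regulators (FOXM1, higher) and 0, 2 and 0 brakes (both lower) at an unadjusted p under 0.05. The same library was also high in immediate early and inflammatory genes, a list chosen with earlier results of these data known. Of these, 24 of 24 exceeded untreated replicate 2 (8103 of all 16396 tested genes did), by a median log2 difference of 2.71. CDH5, a marker of endothelial cells, was at 49.9 CPM there against 7.21 to 12.6 elsewhere, VWF of the same cells at 3.06 against 0.727 to 1.60, and KDR at 0 or 1 count in every library. Their part in the low mitotic levels was not tested.

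GFP replicate 2, the library with the fewest counts, was the highest of the 6 for 22 members, against 19.3% of all genes. Differences between the GFP replicates followed transcript length and GC content over the 36 members (Spearman rho -0.61 with length and 0.60 with GC). Over 11532 genes these were -0.30 and 0.64. Genes of 1 library share its depth and base composition, so these are descriptions with no test. MKI67, CENPF and CENPE, with the longest transcripts at 12716, 10290 and 8742 bases, had the highest values relative to their own mean in GFP replicate 2. In the untreated pair rho over the members was 0.060 with length and 0.061 with GC. After each library's trend with GC content and length was removed, the members' mean centred log2 level was -1.26 in untreated replicate 1 (from -1.19), 0.48 in GFP replicate 2 (from 0.51) and 0.19 in GFP replicate 1 (from -0.0093). All 36 were then lowest in untreated replicate 1 (31.5% of all genes), and 25 were highest in GFP replicate 2 (20.4%). With that correction 0 members passed in any of the 3 comparisons.

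**Figure D5:**
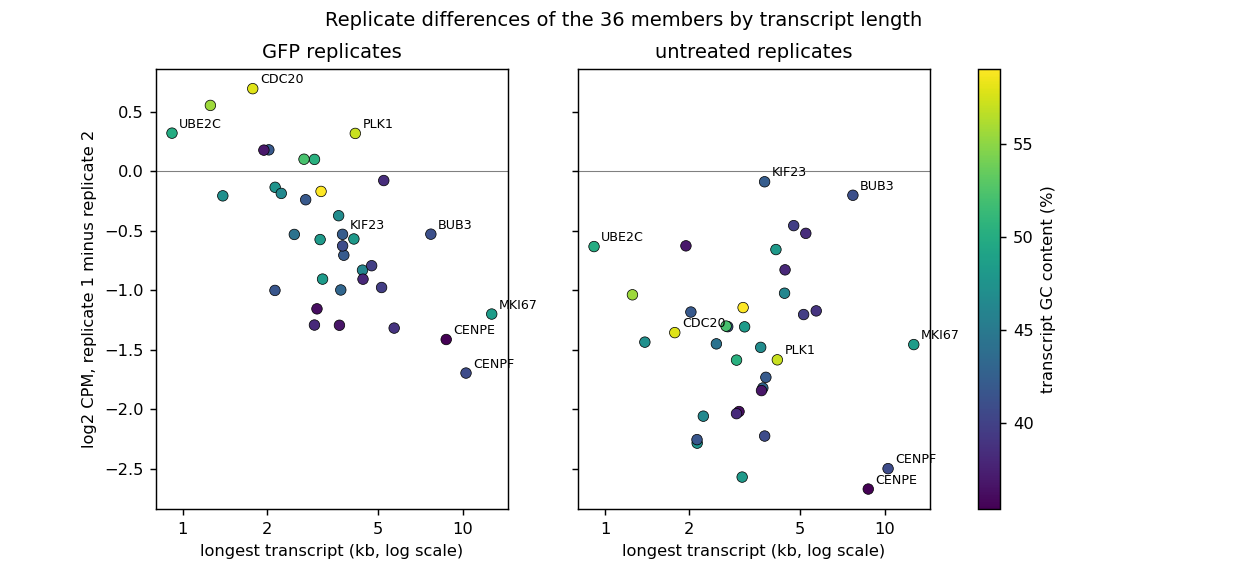
Log2 CPM of replicate 1 minus replicate 2 for the 36 members against the length of the longest transcript (log axis), coloured by its GC content, in the GFP pair (left) and the untreated pair (right). In the GFP pair long, AT-rich transcripts such as CENPF lie lowest and short ones such as CDC20 highest, while in the untreated pair all 36 points lie below 0.

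The 36 genes lie on 15 chromosomes. On chromosome 15 stand BUB1B, NUSAP1, CCNB2, KIF23 and PRC1, and on chromosome 5 CCNB1, KIF20A, CDC25C and HMMR. In the annotation 23 members share no exon base with another gene. The exons of 11 overlap a gene on the opposite strand, and the strand setting of the counting is not given in the sources used here. Among them is PLK1, whose overlaps with more than 1 such gene add up to 12.8% of its exon bases. Pseudogenes named after 12 of the members are annotated, for example 5 of UBE2C, so some of their reads could be assigned there.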

How the data were processed

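The authors deposited raw counts, whole numbers of reads per gene with no normalization, for 57820 versioned Ensembl identifiers in 6 libraries. Per the labels' protocols, total RNA was made into stranded libraries; per the series' design text they were sequenced from both ends; and every library is labelled batch 1. Per the submitters' processing notes, the tools were STAR 2.6, HTSeq 0.6.1, edgeR, FastQC 0.11.7 and bcl2fastq, with several genome builds named. The annotation and strand setting are not given in the sources used here. No column was left out.

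Identifiers were named through GENCODE release 44 (GRCh38) without their version, and 51996 matched. Genes kept by filterByExpr (minimum count 10, minimum total 15; 16396 genes, 99.9% of counts) were fitted with edgeR 4.0.16 (quasi-likelihood F test, TMM, all 6 libraries, no covariate) in R 4.3.3. P-values are two-sided, with Benjamini-Hochberg adjustment across the tested genes and a threshold of 0.05. The SE is the size of the log2 fold change over the square root of F. Log2 CPM used a prior count of 2. Median log2 fold changes and counts describe the list and carry no test. The members and gene lists were chosen with earlier results of these data known. Named with values were the 4 members with the smallest p per comparison, the extremes of the untreated pair, at least 1 member per role, and up to 4 genes per other list and comparison with the smallest p. Alternatives were other scalings and filters, DESeq2 1.42.0, limma-voom 3.58.1, robust edgeR, fits of 2 groups, a replicate block, a spline correction of GC content and length (4 degrees of freedom; values for 97.2% of genes) and each library left out. The fit was tested on simulated data.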

Additional observations from a re-analysis of the deposited data

How the results depend on the processing

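With 2 libraries a group, and 1 of the untreated pair apart from the other 5 in the members' levels, the comparisons with untreated cells turn on that pair. Fits that keep only untreated replicate 1 cannot test the members, since that library was set apart for their low levels in it. Leaving out 1 library at a time, the members' median log2 fold change ran from -0.19 to 0.30 between CRNN and GFP cells, 0.032 to 1.53 for CRNN over untreated and 0.015 to 1.52 for GFP over untreated; the first was highest without GFP replicate 2. The count of members that passed ran from 0 to 0, 0 to 16 and 0 to 16, and both counts of 16 arose without untreated replicate 2. Without that library 957 and 966 of all genes passed in the comparisons with untreated cells. With no low-count filter 1 member, MKI67, passed in GFP against untreated, where 195 genes passed; in all other alternatives that kept the 6 libraries, or the 4 of the 2 groups, 0 members passed. The signs of the members named with a fold change held in all 18 alternatives of each comparison, but their size did not always: for CRNN over GFP the GC and length correction, alone and with the replicate block, gave 0.083 and 0.071 for CCNB1 and 0.025 and 0.018 for CDK1. The block gave -0.55 for CENPE, and with the correction -0.57, and -0.73 for MKI67. Replicate numbers are shared by the groups and were not taken to pair libraries: across 11729 genes the replicate differences of the CRNN and GFP pairs had r = 0.26, those of CRNN and untreated -0.071, and those of GFP and untreated 0.19. With the replicate block the medians were 0.045, 0.74 and 0.70, and together with the GC and length correction -0.080, 0.72 and 0.82, with 0 members passing. Members whose CRNN and GFP libraries did not overlap numbered 4 with library totals only (2 higher, 2 lower; 14.3% and 21.9% of all genes) and 13 after the GC and length correction (1 higher, 12 lower; 18.7% and 24.1%), in place of 7 (4 higher, 3 lower). Those of GFP and untreated numbered 15 after that correction (all higher, 19.4%) in place of 8, with the direction nearly given in advance by untreated replicate 1. The CRNN pair's median difference was -0.20 with library totals only and -0.032 after the correction, and the GFP pair's went from -0.55 to -0.27. Searching TTTGAA alone left 20 of 30 members with a CHR element. Levels under other scalings, and the counts of libraries that do not overlap, were added after the data were seen.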
